A study of Mus musculus with 20 samples.

Results

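The genes described here encode the membrane skeleton of the red cell and the proteins that anchor it to the lipid bilayer. The list held 8 genes: Sptb, Ank1, Epb41, Epb42, Slc4a1, Dmtn, Add2 and Tmod1. Each was represented by the probe set annotated to it alone that had the highest mean over the 20 arrays. By this rule 7 of the 8 genes were found among the 18193 genes tested. For Epb41, the gene of the protein that fastens spectrin to actin, no probe set was named in the annotation used, and it was not analysed here. The 7 genes had 20 probe sets of their own in all, from 1 for Tmod1 to 5 for Add2.

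Spectrin tetramers form a lattice under the red cell membrane whose nodes are short actin filaments. Ankyrin ties beta-spectrin to the anion exchanger known as band 3, and adducin, dematin and tropomodulin act on the ends and sides of the actin filaments. Erythroid precursors assemble this lattice as they mature, and inherited defects of spectrin, ankyrin or band 3 are known causes of hereditary spherocytosis.

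Expression was measured in CFU-E cells, red cell progenitors that need erythropoietin (Epo) to survive and mature, sorted from livers of E13.5 BALB/c mouse fetuses. Cells given 0.5 U/ml Epo were sampled on 12 arrays, each hour up to 8 h and again at 14, 19 and 24 h, and untreated cells on 8 arrays, each hour up to 7 h. There was 1 array per treatment and time. Nothing states that the times were separate cultures, so the p-values reflect variation among arrays of different times, which may be technical. For the mean Epo difference this variation includes any change of the difference over the hours. For late against early times it includes any trend within 1 to 8 h and within 14 to 24 h. The sort was by removal of other lineages and of cells bearing TER119, a surface marker of later erythroid cells. One label describes a starvation of 1 h straight after the sort and another a culture of 12 to 14 h with Epo, so the state of the cells at 0 h is not settled. The number of arrays limits the precision.

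Of 9 listed erythroid progenitor markers 8 were measured, with means over the 20 arrays from 3.39 for the alpha-globin gene Hba-a1 to 13.05 for the transferrin receptor gene Tfrc. The Hba-a1 probe set was dim, at 3.37 with Epo and 3.33 without at 1 to 7 h, under array medians of 3.93 to 4.15. Probe sets naming several genes were left out, so this value is not read as the level of alpha-globin. With Epo 0 of the 8 markers were higher and 5 lower at 1 to 7 h (median -0.38), against 18.2% and 20.2% of all genes. The lower markers ran from -2.17 for the stem cell factor receptor gene Kit and -0.89 for the Epo receptor gene Epor to -0.36 for Tfrc. At 0 h 1 of the 8 was higher with Epo, and the median difference was already -0.33. Hepatocyte markers were present too (7 of 8 listed genes measured). Their mean level per array lay at 8.93 to 10.67 with Epo and at 7.98 to 9.49 without Epo at 1 to 7 h, and at 11.34 and 9.99 at 0 h. Of the 7 measured, 6 were higher with Epo at 1 to 7 h (median 0.89), against 18.2% of all genes. At 14 to 24 h with Epo their mean lay at 5.23 to 7.27. There 7 of 7 were lower than at 1 to 8 h (median -3.34), against 18.5% of all genes. The mean of 8 granulocyte markers lay at 4.94 to 5.38 with Epo and 5.05 to 5.93 without at 1 to 7 h. Means of macrophage, megakaryocyte, lymphoid, and endothelial and stromal markers lay between 3.26 and 5.15 with Epo and between 3.28 and 5.00 without. At 0 h the granulocyte mean was 5.59 with Epo and 6.72 without, with 0 of 8 higher (median -0.95). Higher with Epo at 0 h were 5 of 5 megakaryocyte markers (median 0.31) and 5 of 5 endothelial and stromal markers (median 0.27). For macrophage markers it was 3 of 7, and for lymphoid ones 1 of 3. The log2 signal of the 3' end of beta-actin over its 5' end, a measure of RNA integrity, was 0.58 to 1.00 at 1 to 8 h with Epo and 0.39 to 0.62 at 1 to 7 h without, with the highest value on the 2 h array with Epo and the lowest values without Epo at 1 and 2 h. The same measure for Gapdh was -0.17 to -0.083 at 1 to 8 h with Epo and -0.17 to 0.085 at 1 to 7 h without, highest on the 7 h array. The part of these differences in the results below was not tested. In bulk samples, fewer cells of a type and less RNA per cell cannot be told apart.

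Promoter sequences are shown for the 4 measured genes for which RefSeq windows were given (GRCm38.p6, 250 bases before to 50 after a start). For Ank1, Slc4a1 and Dmtn no window was given. Capitals mark matches on either strand to AGATAA or TGATAA, core letters bound by GATA factors, or to CCNCNCCC, letters bound by Klf1 and its relatives. Matches can overlap each other.
Epb42 (chr2:121036828-121037127, minus strand): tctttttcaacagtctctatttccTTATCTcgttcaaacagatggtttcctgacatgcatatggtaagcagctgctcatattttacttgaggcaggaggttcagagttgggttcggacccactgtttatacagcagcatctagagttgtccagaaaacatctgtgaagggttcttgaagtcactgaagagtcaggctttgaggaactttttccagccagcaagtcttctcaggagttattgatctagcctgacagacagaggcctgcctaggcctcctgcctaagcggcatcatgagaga
Tmod1 (chr4:46038972-46039271, plus strand): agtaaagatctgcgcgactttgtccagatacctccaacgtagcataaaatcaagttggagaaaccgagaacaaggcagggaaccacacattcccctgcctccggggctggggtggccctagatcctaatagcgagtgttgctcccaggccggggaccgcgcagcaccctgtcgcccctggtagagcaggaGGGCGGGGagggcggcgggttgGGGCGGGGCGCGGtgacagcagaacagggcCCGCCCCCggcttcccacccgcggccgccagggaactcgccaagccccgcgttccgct
Sptb (chr12:76710498-76710797, minus strand): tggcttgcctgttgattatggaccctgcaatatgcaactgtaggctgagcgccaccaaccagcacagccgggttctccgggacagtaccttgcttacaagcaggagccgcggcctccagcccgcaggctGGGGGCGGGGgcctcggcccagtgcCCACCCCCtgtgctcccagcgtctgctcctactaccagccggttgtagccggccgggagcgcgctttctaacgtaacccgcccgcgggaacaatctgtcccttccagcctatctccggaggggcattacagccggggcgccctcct
Add2 (chr6:86028431-86028730, plus strand): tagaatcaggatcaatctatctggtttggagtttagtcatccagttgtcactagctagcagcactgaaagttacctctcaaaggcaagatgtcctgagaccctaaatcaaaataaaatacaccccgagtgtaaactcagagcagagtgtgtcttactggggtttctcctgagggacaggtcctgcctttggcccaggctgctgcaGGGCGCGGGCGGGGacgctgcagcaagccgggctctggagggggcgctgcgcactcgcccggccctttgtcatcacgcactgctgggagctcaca

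The Epb42 window held 1 GATA match and no match to CCNCNCCC. The Tmod1 window held 4 matches to CCNCNCCC, that of Sptb 3 and that of Add2 2, and none of these 3 held a GATA match. Of all 32851 windows, 18.6% held a GATA match, 49.5% a match to CCNCNCCC and 5.73% both. The matches are a description of letters in these windows, and any link to the courses over time was not tested.

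The first question was how the genes differed between cells with and without Epo over 1 to 7 h, as the mean of 7 matched hourly differences (log2, Epo minus no Epo). The actin-binding protein genes Dmtn and Tmod1 and the band 3 binding protein gene Epb42 were lower with Epo. Add2 was lower by a smaller amount, and the genes of beta-spectrin, ankyrin and band 3 did not pass the test. These statements are for the chosen probe sets. The other Dmtn sets gave 0.14 and 0.13, and the other Add2 sets 0.77, 0.37, 0.19 and -0.15. Of the 7 genes, 0 were called higher and 4 lower (limma, Benjamini-Hochberg adjusted p under 0.05), where 18.2% of all genes were called higher and 20.2% lower. The median difference was -0.33 over the 7 genes and 0.03 over all genes. With each array centred on its median, 5 of the 7 were lower, and the calls over all genes split into 2389 higher and 4476 lower, against 3312 and 3669 as deposited.

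**Figure D1:**
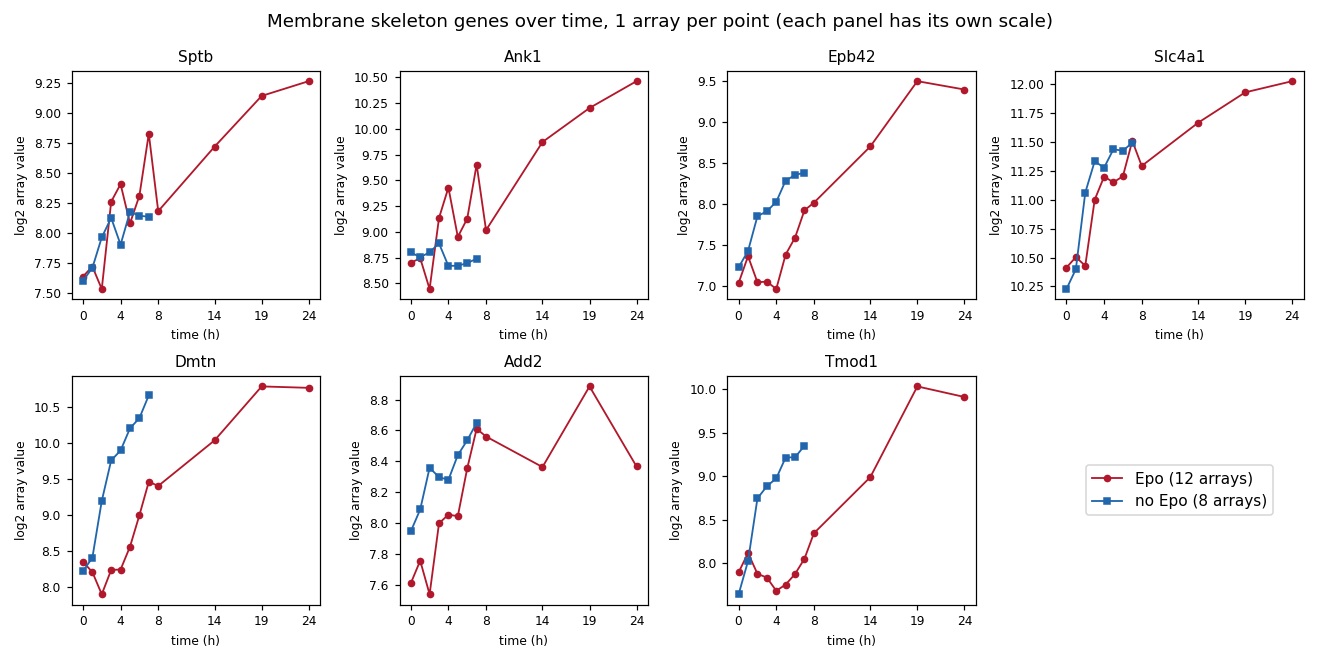
Log2 array value (y axis, a scale of its own in each panel) against time in hours (x axis) for 7 membrane skeleton genes, with 1 point per array, in red circles for the 12 arrays with Epo and blue squares for the 8 without. Dmtn, Tmod1 and Epb42 lie lower with Epo from 2 h on and reach their highest levels at 19 h with Epo, while Ank1 stays between 8.67 and 8.89 without Epo.

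Beta-spectrin, encoded by Sptb, is the chain that binds ankyrin and actin. With Epo, Sptb lay at 7.64 at 0 h, 7.53 at 2 h, 8.41 at 4 h, 8.08 at 5 h, 8.83 at 7 h and 8.18 at 8 h, and then at 8.72, 9.14 and 9.26 at 14, 19 and 24 h. Without Epo it lay at 7.60 at 0 h and between 7.71 and 8.18 at 1 to 7 h. The ranges at 1 to 7 h overlapped, and the array with Epo was the higher one in 5 of 7 pairs. The mean difference was 0.14 ± 0.13 (SE, n = 7 pairs; adjusted p = 0.427).

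Ank1 encodes ankyrin, the link between beta-spectrin and band 3. With Epo it lay at 8.70 at 0 h, 8.44 at 2 h, 9.43 at 4 h, 9.65 at 7 h and 9.02 at 8 h, and at 9.87, 10.20 and 10.46 at 14, 19 and 24 h. Without Epo it stayed between 8.67 and 8.89 at all 8 times. The arrays with Epo scattered more widely, and they were higher in 5 of 7 pairs. The mean difference was 0.32 ± 0.14 (adjusted p = 0.0904, and 0.44 with adjusted p = 0.0202 without the 2 h pair). After quantile normalization Ank1 passed as well, at 0.42 (adjusted p = 0.0321). The other Ank1 probe sets gave -0.25 ± 0.12, 0.015 ± 0.143 and -0.34 ± 0.16 (adjusted p = 0.125, 0.948 and 0.115 over all probe sets). The direction of the Ank1 difference thus depended on the probe set.

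Slc4a1 encodes band 3, the anion exchanger to which ankyrin attaches the lattice. With Epo it lay at 10.41 at 0 h, 10.43 at 2 h, 11.20 at 4 h, 11.51 at 7 h and 12.02 at 24 h, and without Epo at 10.23 at 0 h, 11.06 at 2 h, 11.28 at 4 h and 11.49 at 7 h. At 1 and 7 h the array with Epo was the higher of the pair, and at the other 5 hours the lower. The mean difference was -0.20 ± 0.09 (adjusted p = 0.0842). It passed after median centring (-0.28, adjusted p = 0.028) and without the 1 h pair (-0.26, adjusted p = 0.0316). The chosen probe set carries a suffix for possible cross-hybridisation. A probe set of Slc4a1 without such a suffix gave -0.12 (adjusted p = 0.313 over all probe sets).

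Epb42 encodes a protein that binds band 3 and ankyrin. With Epo it lay at 7.03 at 0 h, 7.36 at 1 h, 6.96 at 4 h and 7.92 at 7 h, and without Epo at 7.23, 7.43, 8.02 and 8.38 at those hours. It was lower with Epo in 7 of 7 pairs, by 0.06 at 1 h and by 1.06 at 4 h. Its levels averaged 7.33 ± 0.35 with Epo and 8.03 ± 0.34 without (SD, n = 7 arrays each), a mean difference of -0.70 ± 0.12 (adjusted p = 0.000792). The other Epb42 probe set gave -0.75 ± 0.11 (adjusted p = 0.00022).

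Dmtn encodes dematin, an actin bundling protein of the lattice nodes. With Epo the chosen probe set lay at 8.35 at 0 h, 7.89 at 2 h, 8.24 at 4 h, 9.46 at 7 h and 9.40 at 8 h. Without Epo it lay at 8.21 at 0 h, 9.19 at 2 h, 9.90 at 4 h and 10.66 at 7 h. All 7 differences were negative, from -0.20 at 1 h to -1.66 at 4 h. The mean difference was -1.27 ± 0.16 (adjusted p = 7.35e-05), a 2.41-fold lower level with Epo. The 2 dimmer Dmtn probe sets gave other values, with differences of 0.14 ± 0.11 and 0.13 ± 0.10 (adjusted p = 0.373 and 0.344), with the array with Epo higher in 5 of 7 pairs for each. Both were higher at 14 to 24 h than at 1 to 8 h with Epo, by 1.05 and 0.65 (adjusted p = 0.0346 and 0.00771).

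Tmod1 encodes tropomodulin, which caps the slow-growing ends of actin filaments. With Epo it lay at 7.90 at 0 h, 8.12 at 1 h, 7.68 at 4 h, 8.05 at 7 h and 8.35 at 8 h, and without Epo at 7.64 at 0 h, 8.03 at 1 h, 8.98 at 4 h and 9.35 at 7 h. At 1 h the array with Epo was higher by 0.092. From 2 h on it was lower, by 0.87 at 2 h and 1.46 at 5 h. The mean difference was -1.03 ± 0.17 (adjusted p = 0.000468), a 2.04-fold lower level with Epo.

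Add2 encodes beta-adducin, which caps the fast-growing ends of actin filaments and recruits spectrin to them. Its other probe sets, described below, gave mean differences from -0.15 to 0.77. With Epo the chosen probe set lay at 7.61 at 0 h, 7.54 at 2 h, 8.05 at 4 h and 8.61 at 7 h, and without Epo at 7.95, 8.36, 8.28 and 8.65 at those hours. It was lower with Epo in 7 of 7 pairs, with a mean difference of -0.33 ± 0.10 (adjusted p = 0.0258). A difference of -0.34 was present at 0 h, so the value from the own 0 h arrays was 0.0091 (adjusted p = 0.995, and 0.993 with drift allowed). The call also ended without the 2 h pair (-0.25, adjusted p = 0.0605), without the 3 h pair (-0.33, adjusted p = 0.0527), without the 5 h pair (-0.32, adjusted p = 0.0632) and after quantile normalization (-0.20, adjusted p = 0.141).

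None of the 7 genes had ranges that did not overlap between the 7 arrays with Epo and the 7 without (0 of 7, against 13.9% of all genes). At 0 h the differences ran from -0.34 for Add2 to 0.25 for Tmod1, with 3 of 7 genes lower with Epo. Set against each series' own 0 h array, the differences were -1.40 for Dmtn, -1.28 for Tmod1 and -0.51 for Epb42. These rest on a single pair of 0 h arrays: 0 genes of the 7 passed without a drift term (adjusted p = 0.54, 0.602 and 0.699, with 12 of all genes called), and Dmtn and Tmod1 passed with one (adjusted p = 0.0379 and 0.0258). Without the 2 h pair, where 5 of the 7 genes had their lowest value of 1 to 8 h with Epo, Dmtn was at -1.26, Tmod1 at -1.06 and Epb42 at -0.68, all called.

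**Figure D2:**
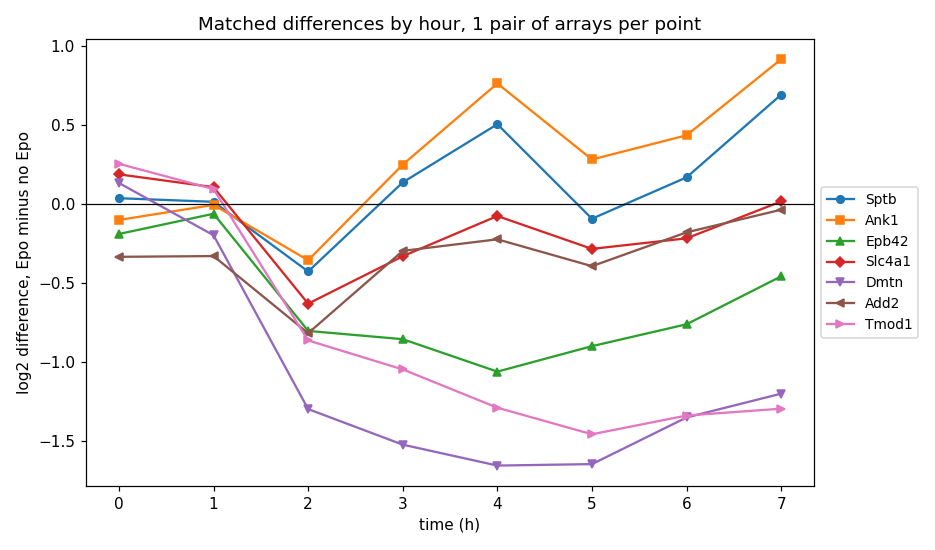
Log2 difference of each matched pair of arrays (Epo minus no Epo, y axis) at 0 to 7 h (x axis), with 1 line per gene and 1 pair per point. At 1 h every gene lies between -0.33 and 0.10, and from 3 h Dmtn and Tmod1 lie below -1 while Ank1 lies above 0.

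The second question was whether these differences changed over 1 to 7 h, which tests the courses of both series against each other. The difference of Ank1 increased by 0.16 ± 0.05 log2 per hour (adjusted p = 0.0295), and that of Tmod1 decreased, with a slope of -0.20 ± 0.05 (adjusted p = 0.0156). Of the 7 genes 1 was thus called upward and 1 downward, where 7.25% and 7.97% of all genes were. Both calls rested on single times. Without the 1 h pair the slope of Tmod1 was -0.091 (adjusted p = 0.231). Without the 2 h pair that of Ank1 was 0.12 (adjusted p = 0.115), without 7 h 0.13 (adjusted p = 0.181), and with all its probe sets averaged 0.068 (adjusted p = 0.445). The slopes of the other 5 differences ran from -0.12 for Dmtn (0.029 without the 1 h pair) to 0.11 for Sptb, and none was called.

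Within each series most of the 7 genes rose over 0 to 7 h. Over these hours 7 of 7 hepatocyte markers fell in both series, with a median slope of -0.31 log2 per hour with Epo and -0.28 without, and 2 of 8 granulocyte markers fell with Epo and 5 of 8 without. Of all genes, 5.88% fell with Epo and 15.4% without. The part of these markers in the rise was not tested. Without Epo 6 of 7 genes rose over 0 to 7 h and 0 fell, where 13.3% of all genes rose and 15.4% fell. Their slopes were 0.36 ± 0.03 log2 per hour for Dmtn (adjusted p = 1.51e-05), 0.23 ± 0.03 for Tmod1, 0.18 ± 0.03 for Slc4a1, 0.17 ± 0.02 for Epb42, 0.088 ± 0.020 for Add2 and 0.075 ± 0.023 for Sptb (n = 8 arrays each). Ank1 had a slope of -0.016 ± 0.019 (adjusted p = 0.614). At 7 h the chosen Dmtn set stood at 5.46 times its 0 h level, Tmod1 at 3.26 times, Slc4a1 at 2.41 times and Epb42 at 2.23 times. These ratios each rest on a single pair of arrays. The other Dmtn sets stood at 2.70 and 1.64 times. Their slopes were 0.22 ± 0.03 and 0.066 ± 0.026 (adjusted p = 6.75e-05 and 0.0895 over all probe sets). The rise of Sptb was not called without the array of 0, 1, 5 or 6 h (slopes 0.060 to 0.076, adjusted p = 0.0626 to 0.141) or when its probe sets were averaged (0.032).

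With Epo 5 of 7 genes rose over the same hours and 0 fell, where 2.21% of all genes rose and 5.88% fell. The slopes were 0.16 ± 0.04 for Dmtn (adjusted p = 0.0166), 0.16 ± 0.02 for Slc4a1 (adjusted p = 0.000172), 0.16 ± 0.03 for Sptb (adjusted p = 0.00693), 0.14 ± 0.03 for Add2 (adjusted p = 0.00329) and 0.12 ± 0.03 for Ank1 (adjusted p = 0.0334). Epb42 had a slope of 0.098 ± 0.034 (adjusted p = 0.101) and Tmod1 one of -0.0075 ± 0.026 (adjusted p = 0.931). Without the 7 h array 2 genes were called, since Sptb (0.13, adjusted p = 0.0601), Ank1 (0.096, adjusted p = 0.202) and Dmtn (0.11, adjusted p = 0.156) were lost. The call of Ank1 also ended without the 0 or 1 h array (adjusted p = 0.0551 and 0.0732), after median centring and without the variance trend (adjusted p = 0.0534 and 0.0596), and that of Dmtn without the 6 h array (adjusted p = 0.071). With the 8 h array added, Epb42 passed (0.12, adjusted p = 0.0167) and Ank1 did not (0.086, adjusted p = 0.116).

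**Figure D3:**
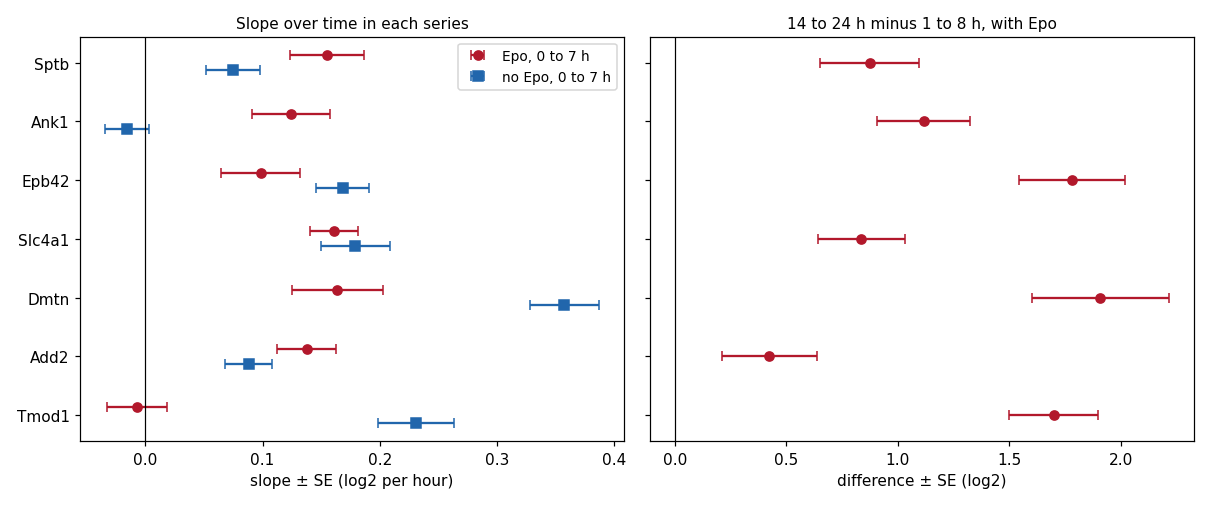
The left panel shows the slope of each gene over 0 to 7 h (log2 per hour, ± SE) with Epo in red circles and without Epo in blue squares (8 arrays each). The right panel shows the log2 difference between the 3 arrays of 14 to 24 h and the 8 arrays of 1 to 8 h, all with Epo (± SE). Dmtn and Tmod1 have the steepest slopes without Epo, and all 7 late differences lie above 0.

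Past 8 h arrays with Epo alone were measured, so the late rise cannot be set against untreated cells. At 14, 19 and 24 h 6 of 7 genes were higher than at 1 to 8 h with Epo and 0 were lower, where 17.6% of all genes were higher and 18.5% lower. The split over all genes was 2202 higher and 3738 lower after median centring, against 3207 and 3372 as deposited, and the same count of 6 of the 7 genes was called. The median difference was 1.12 over the 7 genes and 0.08 over all genes. Dmtn averaged 10.53 ± 0.43 at 14 to 24 h and 8.62 ± 0.59 at 1 to 8 h (SD, n = 3 and 8 arrays), a difference of 1.91 ± 0.31 (adjusted p = 0.000302). Epb42 differed by 1.78 ± 0.24 (adjusted p = 7.77e-05), Tmod1 by 1.70 ± 0.20 (adjusted p = 3.59e-05) and Ank1 by 1.12 ± 0.21 (adjusted p = 0.000872). Sptb differed by 0.87 ± 0.22 (adjusted p = 0.00675) and Slc4a1 by 0.84 ± 0.19 (adjusted p = 0.00377). Without the 24 h array, whose values spanned the narrowest range (SD 2.31 over probe sets, against 2.42 to 2.58 on the other 19 arrays), all 6 were still called, with differences of 0.76 to 1.79.

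Add2 was the exception, at 0.42 ± 0.21 (adjusted p = 0.135, and 0.61 with adjusted p = 0.026 after quantile normalization). Its levels with Epo were 8.56 at 8 h, 8.36 at 14 h, 8.89 at 19 h and 8.37 at 24 h. Against 6 to 8 h in place of 1 to 8 h, Sptb was no longer called (0.60, adjusted p = 0.0929) and the other 5 were. At 24 h with Epo, Dmtn stood at 5.36 times its 0 h level, Epb42 at 5.13 times, Tmod1 at 4.04 times, Ank1 at 3.40 times, Sptb at 3.08 times, Slc4a1 at 3.06 times and Add2 at 1.69 times. The other Dmtn sets stood at 3.79 and 2.09 times. These ratios each rest on a single pair of arrays.

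With Epo, Dmtn, Tmod1 and Add2 first reached the level of the 7 h array without Epo at 19 h, Epb42 at 14 h, Slc4a1 at 7 h and Sptb at 3 h. At 7 h itself the difference was -0.038 for Add2, but -1.20 for Dmtn and -1.30 for Tmod1. Add2 was under its level of 8.65 again at 24 h (8.37). Sptb was under its level of 8.14 again at 5 h (8.08), and Slc4a1 under its level of 11.49 at 8 h (11.29). For Ank1 the 7 h level without Epo lay within the range of the early arrays of both series and was reached at 1 h. These hours are for the chosen sets. The other Dmtn sets reached their own 7 h level without Epo at 7 and 6 h, and the other Add2 sets at 3 or 6 h.

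The 5 probe sets of Add2 did not move alike between the series. Probe set 1450442_at lay at 6.73 at 0 h, 7.67 at 4 h, 8.19 at 7 h, 7.85 at 8 h and 7.32 at 24 h with Epo, and between 6.57 and 6.89 at all 8 times without. It was higher with Epo in 7 of 7 pairs, by 0.77 ± 0.16 on average (adjusted p = 0.00198 over all probe sets), where the chosen set 1435287_at was lower. Set 1431076_at was higher by 0.37 ± 0.12 (adjusted p = 0.0347). The remaining sets gave 0.19 ± 0.16 and -0.15 ± 0.15 (adjusted p = 0.403 and 0.478). The difference between the series increased over 1 to 7 h for 3 of the 5 sets, by 0.20 to 0.21 log2 per hour (adjusted p = 0.00523, 0.00669 and 0.00696), and all 5 sets rose with Epo over 0 to 7 h. Averaged over its probe sets, the Add2 difference was 0.17 (adjusted p = 0.337), the opposite direction to the chosen set, and it increased by 0.16 per hour (adjusted p = 0.0157). The annotation used here names a sequence record for each Add2 set but the chosen one. It does not list the transcripts that each set detects. Sets 1450442_at and 1421975_a_at carry the same record and gave 0.77 and 0.19.

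**Figure D4:**
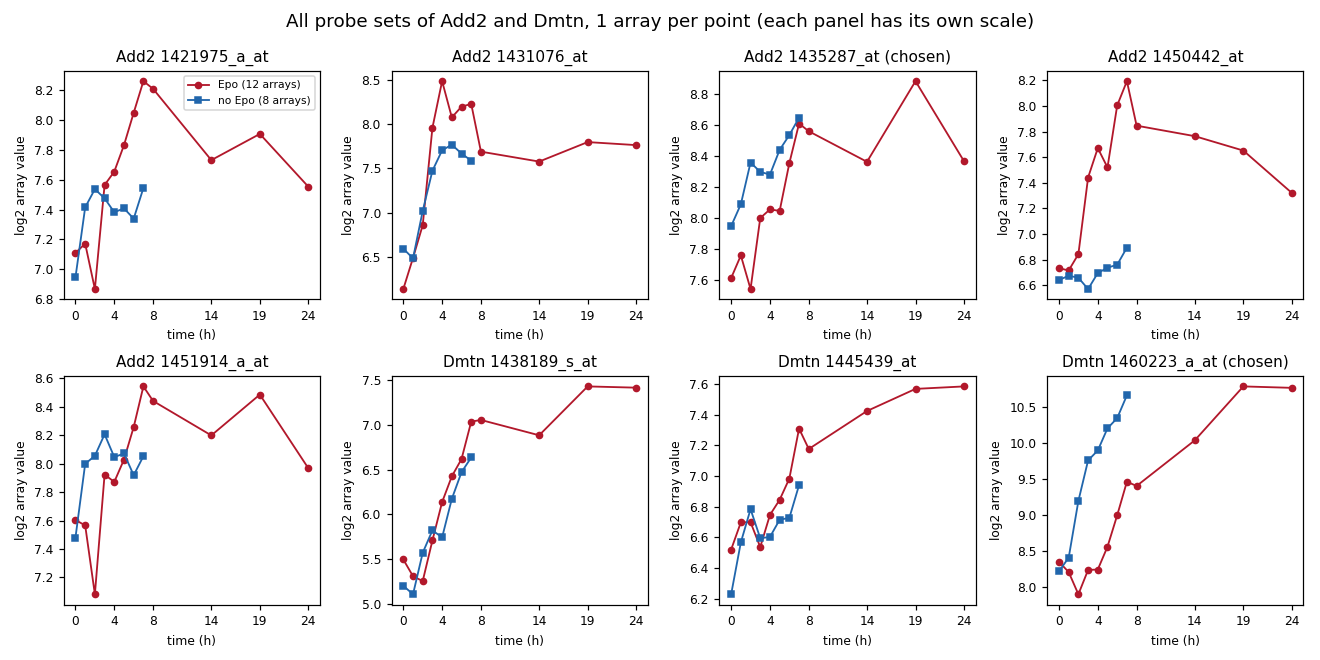
Log2 array value (y axis, a scale of its own in each panel) against time in hours (x axis) for the 5 probe sets of Add2 and the 3 of Dmtn, with 1 point per array, in red circles with Epo and blue squares without. Set 1450442_at of Add2 lies higher with Epo at 1 to 7 h and the chosen set 1435287_at lower, and the chosen Dmtn set lies lower with Epo in 7 of 7 pairs, the others in 2 of 7 each.

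Other genes of the lattice and its anchors were taken from a list of 18, of which 16 were measured. Of the 16, 1 was higher and 10 lower with Epo at 1 to 7 h (median -0.52), against 18.2% and 20.2% of all genes. The alpha-adducin gene Add1, whose product pairs with that of Add2, was at -0.82 ± 0.09 (adjusted p = 3.78e-05), and Add3, the gamma form, at -0.83 ± 0.13. Lower as well were Stom, the gene of the lipid raft protein stomatin (-1.23 ± 0.16), Tmod3, a tropomodulin gene used in many tissues (-1.09 ± 0.12), Gypc, which anchors the lattice through the product of Epb41 (-0.53 ± 0.09), and Rhag, the gene of the Rh-associated glycoprotein (-0.50 ± 0.07). Cd47, a surface protein gene of the band 3 complex, was higher by 0.41 ± 0.10 (adjusted p = 0.00565). Mpp1, a palmitoylated scaffold gene of the same nodes, was at -0.10 ± 0.11 (adjusted p = 0.504). At 0 h the series already differed, with and without Epo, for Cd47 (11.90 and 11.35), Rhag (10.87 and 11.40) and Add1 (9.54 and 10.05). Stom lay at 9.32 and 9.61 there, Tmod3 at 8.00 and 8.42, Gypc at 9.41 and 9.66 and Mpp1 at 9.27 and 8.81. The part of these 0 h differences in those of 1 to 7 h was not tested.

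Over 0 to 7 h without Epo 10 of the 16 rose and 3 fell (median slope 0.095), against 13.3% and 15.4% of all genes. With Epo 3 rose and 2 fell (median 0.014), against 2.21% and 5.88% of all genes. Gypc rose in both series, by 0.19 ± 0.03 log2 per hour with Epo and 0.26 ± 0.02 without. The test of the change of the difference called 1 of the 16 upward and 5 downward, where 7.25% and 7.97% of all genes were. Upward was the tropomyosin gene Tpm3 (0.12 ± 0.03). Among those downward were Stom (-0.22 ± 0.04), Tmod3 (-0.16 ± 0.03), Rhd (-0.16 ± 0.03) and Cd47 (-0.14 ± 0.02). At 14 to 24 h with Epo 10 of 16 were higher than at 1 to 8 h and 1 lower (median 0.61). The shares over all genes were 17.6% higher and 18.5% lower. Mpp1 differed by 1.53 ± 0.17, the Kell blood group gene Kel by 1.32 ± 0.19, Stom by 1.25 ± 0.17 and Rhd, an Rh protein gene, by 1.21 ± 0.17. Tmod3 stood at 0.00 ± 0.14 there (adjusted p = 0.995), and Tpm3 was lower, at -0.41 ± 0.14.

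Paralogues whose main roles lie outside the red cell were counted in the same way. Of 14 listed genes 13 were measured. At 1 to 7 h 2 were higher and 2 lower with Epo (median 0.13), where 18.2% of all genes were higher and 20.2% lower. Ank3, an ankyrin gene of neurons and epithelia, was at 0.26 ± 0.07 and Epb41l2, a relative of Epb41, at -0.55 ± 0.16. Ank3 was dim, at 3.95 with Epo and 3.69 without, under array medians of 4.01 to 4.05 and 3.94 to 3.99. At 14 to 24 h 1 was higher and 1 lower, where 17.6% of all genes were higher and 18.5% lower. The higher one was the neuronal tropomodulin gene Tmod2 (0.45 ± 0.12). Tmod2 was dim, at 2.89 with Epo and 2.84 without at 1 to 7 h. Array medians with Epo were 4.08 to 4.15 at 14 to 24 h and 4.01 to 4.05 at 1 to 8 h, and their part in the Tmod2 difference was not tested. The lower one was Sptbn1, which encodes the widespread beta-spectrin (-0.95 ± 0.21, adjusted p = 0.00314). Without Epo Sptbn1 fell as well (slope -0.26 ± 0.04), as it did with Epo (-0.21 ± 0.04).

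Transcription factor genes known to act on erythroid genes had the following values. Gata1 averaged 10.20 with Epo and 10.92 without at 1 to 7 h, a difference of -0.72 ± 0.08 (adjusted p = 3.83e-05), and Klf1 differed by -0.40 ± 0.10 (adjusted p = 0.00769). Tal1 and Nfe2 were at -0.05 and -0.12 and were not called. Thus 2 of the 4 were called lower and 0 higher, against 20.2% and 18.2% of all genes. At 0 h, with and without Epo, Gata1 lay at 10.41 and 10.65, Klf1 at 12.17 and 12.47, Tal1 at 9.92 and 10.28 and Nfe2 at 9.50 and 9.21. The part of these 0 h differences in those of 1 to 7 h was not tested. Nfe2 rose in both series, by 0.23 ± 0.03 log2 per hour with Epo and 0.34 ± 0.04 without. At 14 to 24 h all 4 were higher than at 1 to 8 h with Epo, against 17.6% of all genes. The differences ran from 0.41 for Klf1 to 1.53 for Nfe2.

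The genes whose course over the 20 arrays was most like the mean course of the 7 (Pearson's r, among genes at or above the median level) were Fech (0.98), which encodes the last enzyme of heme synthesis, the cochaperone gene Dnajb2 (0.97), Prr13 (0.96), the mitochondrial iron transporter gene Slc25a37 (0.96), the calpain subunit gene Capns1 (0.96) and Tent5c (0.96), a poly(A) polymerase gene. The arrays share a time order and are not independent. Fech lay at 10.81, 11.79 and 12.89 at 0, 7 and 24 h with Epo, and at 11.15 and 12.10 at 0 and 7 h without. Among the 7 genes themselves, each of which is part of that mean course and so is raised in its r by construction, r ran from 0.71 for Ank1 to 0.97 for Epb42.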

How the data were processed

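RNA was measured on mouse Affymetrix arrays, 1 per sample, from 1.5 µg of total RNA labelled with biotin, per the labels' protocols. The deposited values are log2, as their range of 1.37 to 14.56 shows; the authors' summarising and scaling are not given in the sources used here. Of 45101 probe sets 34945 named 1 gene, 932 several and 9160 were unnamed, and the other 64 were control probe sets, left out of the tests. Each of 18193 genes was represented by its probe set of highest mean. No filter on dim genes was used.

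Fits used limma 3.58.1 in R 4.3.3 (empirical Bayes with trend, Benjamini-Hochberg adjustment over all genes): Epo against no Epo with time as a block (14 arrays), the slope of the 7 differences, slopes over 0 to 7 h in each series, and late against early times with Epo. Other probe sets of the 7 genes come from a fit of all probe sets, added after seeing the data. The fits were tested on simulated data with independent noise on each array. Such data cannot show how the p-values hold for arrays that share a time order. The members, lists and named genes (all members, list members by size of change, partners, regulators, the 6 most alike) were chosen with earlier results of these data known. Alternatives changed normalization, centring, filters, probe sets, variance models, times and the 0 h arrays. Figures were made with Python 3.11.15 and matplotlib 3.10.9.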

Additional observations from a re-analysis of the deposited data

Results flagged for a closer look

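Each of the 7 genes was examined for an array that stood far from the others, over the 7 matched differences and over the 8 arrays without Epo, 14 groups in all, of which chance flags about 1 in 20. The 1 h difference stood apart from those of 2 to 7 h for Dmtn (-0.20, against -1.66 to -1.20) and for Tmod1 (0.092, against -1.46 to -0.87). The 1 h pair is also the earliest of the matched times. The slopes of 2 genes differed between the series by the test of the difference itself: that of Ank1 by 0.16 log2 per hour and that of Tmod1 by -0.20 (Epo minus no Epo, 1 to 7 h).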

How the results depend on the processing

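Over 35 results (7 genes in 5 comparisons), 630 alternative values were computed: 571 kept direction and call, 35 kept the direction and lost the call, 8 gained one and 16 changed sign, of which 4 belonged to called results. Of the called results, the direction turned for Add2 at 1 to 7 h with the mean of its probe sets (0.17) and from its own 0 h array, without and with drift (0.0091), and for Dmtn without suffixed probe sets (0.13), where a dimmer probe set replaced the chosen one. Of the uncalled, with probe sets averaged Ank1 between the series was at -0.062, its slope without Epo at 0.041 and the Dmtn change of the difference at 0.0028. That of Dmtn was at 0.057 without suffixed probe sets, and that of Slc4a1 at -0.018 with 0 h added. With single times left out, it ran from -0.198 to 0.029 for Dmtn, from -0.114 to 0.062 for Epb42 and from -0.017 to 0.096 for Slc4a1. The Tmod1 slope with Epo was at 0.00063 after quantile normalization and 0.025 with 8 h added, and ran from -0.035 to 0.0099 with single times left out. Of the 7 genes, the 4 called between the series became 0 from the own 0 h arrays and 2 with drift allowed, and 3 to 5 with single times left out. Subtracting a single 0 h pair also lowers the precision. The 2 called for a change of the difference became 1 without the variance trend (Ank1 lost, adjusted p = 0.055) and 1 to 2 with single times left out. The 5 that rose with Epo became 3 with the mean of all probe sets and 2 to 5 with single times left out. Leaving out single times gave 5 to 6 for the rise without Epo and 6 to 6 for the late rise. Without time as a block 3 genes were called lower (Add2 lost, adjusted p = 0.0884). Where no construction of the alternative shows it, the cause was not tested.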

Other observations

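Further probe sets of the anchor genes gave these values. Set 1425677_a_at of Ank1 lay at 6.99 at 0 h, 7.89 at 7 h and 8.34 at 24 h with Epo, and at 7.40 and 7.72 at 0 and 7 h without. Its difference at 1 to 7 h was -0.25 ± 0.12 (adjusted p = 0.125), where the chosen Ank1 set was at 0.32. It was higher at 14 to 24 h than at 1 to 8 h with Epo, by 0.94 ± 0.18 (adjusted p = 0.00118), as the chosen set was. Set 1431743_a_at of Slc4a1 lay at 6.82 at 0 h, 8.09 at 7 h and 9.53 at 24 h with Epo, and at 6.37 and 7.43 at 0 and 7 h without, and was higher by 1.76 ± 0.31 at the late times (adjusted p = 0.00055). Between the series at 1 to 7 h it differed by 0.08 ± 0.18 (adjusted p = 0.764), where the chosen Slc4a1 set was at -0.20. A second Sptb set was dim, at a mean of 4.73, and was not called in any of the 5 comparisons.

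Among the 21 pairs of the 7 genes, Pearson's r ran from 0.61 to 0.98 over the 12 arrays with Epo and from -0.48 to 0.99 over the 8 without. Each of the 6 pairs with Ank1 was below 0 without Epo, from -0.48 with Epb42 to -0.18 with Sptb, and from 0.75 with Add2 to 0.98 with Sptb in the series with Epo. These values are for the chosen Ank1 set, whose slope without Epo was -0.016 log2 per hour. The other Ank1 sets had slopes of 0.052, 0.12 and 0.0076 there, and their r was not computed. The arrays of a series share a time order, and Ank1 moved by 0.22 log2 in all without Epo.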
